A study of Mus musculus with 21 samples.

Results

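The 6 genes Fcgr1, Fcgr3, Fcgr4, Fcer1g, Fcgr2b and Fcrls were followed in the RNA of mouse microglia, the resident macrophages of the brain. They were chosen by gene name as the Fc gamma receptors, their shared signalling chain and the Fc receptor-like gene Fcrls. All 6 were found in both tables, among 18079 genes of the genotype table and 13297 genes of the injection table, and all 6 were tested in both. The genotype table held 4 libraries labelled as uninjected ApoE KO females of the strain B6.129P2-Apoetm1Unc/J and 7 labelled as uninjected WT females of the strain C57BL/6. The injection table held 5 libraries labelled as ApoE KO males of the same B6.129P2-Apoetm1Unc/J strain injected with rAPOE, recombinant APOE protein in phosphate-buffered saline (PBS), and 5 labelled as males of that strain injected with PBS. All mice were 12 to 18 weeks old. The injection went into the left hemisphere, and cells were taken 16 h later from both hemispheres. The labels do not say which hemisphere or which animal a library came from, and p-values therefore reflect only how much these libraries varied, which may be technical. Both injected groups lack Apoe, and the strain lacks it in all cells, not in microglia alone.

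Fc receptors bind the constant part of antibodies and let macrophages take up antibody-coated particles. Fcgr1, Fcgr3 and Fcgr4 are activating receptors that depend on the Fcer1g chain, whose cytoplasmic motif is phosphorylated by Src-family kinases and then recruits the kinase Syk. Fcgr2b is the inhibitory receptor and recruits the lipid phosphatase encoded by Inpp5d. Fcrls is a scavenger receptor-like relative of the Fc receptors that is used as a marker of mouse microglia.

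Fcgr2b, Fcgr4, Fcgr3 and Fcer1g lie in this order within 276 kb of chromosome 1, from 170958617 to 171234365 (GRCm38, GENCODE M21). Fcrls and Fcgr1 lie apart from each other on chromosome 3, at 87250758 to 87263738 and 96282909 to 96293969. Fcgr4 is on the plus strand and the other 5 on the minus strand. No exon of another annotated gene fell in the last 500 bases of any of the 6 genes, where 3′ tags arise. Mouse Fcgr2b and Fcgr3 share closely similar extracellular coding sequence, and how the counting treated shared tags is not stated.

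Promoter windows, from 250 bases before to 50 bases after the annotated start, are shown for the gene that rose after rAPOE (Fcgr4) and for 3 genes that rose in ApoE KO libraries (Fcgr1, Fcrls and Fcer1g). The sequences are those of RefSeq on GRCm38.p6, read 5′ to 3′ on the strand of the gene. Capitals mark matches on either strand to the PU box GAGGAA, the GAS element TTCNNNGAA and the interferon-response core GAAANNGAA. The windows are chr1:171018676-171018975 (plus), chr3:96293920-96294219 (minus), chr3:87263475-87263774 (minus) and chr1:171234300-171234599 (minus).
Fcgr4: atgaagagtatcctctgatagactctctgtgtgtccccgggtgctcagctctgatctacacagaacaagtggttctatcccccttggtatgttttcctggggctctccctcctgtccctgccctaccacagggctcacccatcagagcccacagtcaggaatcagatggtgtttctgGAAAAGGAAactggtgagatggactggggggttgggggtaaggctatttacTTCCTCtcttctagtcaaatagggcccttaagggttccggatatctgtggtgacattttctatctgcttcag
Fcgr1: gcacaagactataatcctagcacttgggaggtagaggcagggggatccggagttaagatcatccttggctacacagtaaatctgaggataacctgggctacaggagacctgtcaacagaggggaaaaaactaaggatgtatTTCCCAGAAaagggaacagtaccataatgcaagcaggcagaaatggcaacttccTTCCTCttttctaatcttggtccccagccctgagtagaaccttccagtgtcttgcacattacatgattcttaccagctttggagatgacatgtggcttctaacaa
Fcrls: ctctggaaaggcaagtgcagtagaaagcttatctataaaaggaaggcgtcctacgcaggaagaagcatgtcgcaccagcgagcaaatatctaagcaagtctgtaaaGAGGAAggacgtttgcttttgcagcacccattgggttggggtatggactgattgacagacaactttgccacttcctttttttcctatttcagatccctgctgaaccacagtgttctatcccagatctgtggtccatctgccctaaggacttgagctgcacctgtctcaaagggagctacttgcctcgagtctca
Fcer1g: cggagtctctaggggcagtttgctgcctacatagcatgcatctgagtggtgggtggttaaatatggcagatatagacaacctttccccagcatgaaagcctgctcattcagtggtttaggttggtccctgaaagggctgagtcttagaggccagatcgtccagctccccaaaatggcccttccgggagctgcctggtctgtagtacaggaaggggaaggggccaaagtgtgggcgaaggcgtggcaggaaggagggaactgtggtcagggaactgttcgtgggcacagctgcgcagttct

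The Fcgr4 window held an interferon-response core match and, closer to the start, a PU box match on the opposite strand. The Fcgr1 window held a GAS match and a PU box match on the opposite strand. The Fcrls window held a PU box match, and Fcer1g held none of the 3 motifs. The Fcgr3 windows also held a PU box match, and the Fcgr2b window held none. Of 32851 promoter windows of the same length, 28.3% held a PU box, 8.3% a GAS element and 8.56% an interferon-response core. These matches are letters in a window and are not measured binding.

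The libraries held 4247865 to 4969287 reads in the ApoE KO group, 2016972 to 3054976 in the WT group, 857059 to 1119059 in the rAPOE group and 704225 to 1347501 in the PBS group. ApoE KO libraries held fewer detected genes (8117 to 10479) than WT libraries (13592 to 15248). Apoe, the gene the strain lacks, was at 10.2, 0, 0 and 23.1 normalised counts in ApoE KO libraries 1 to 4, against 13196 to 17163 in the WT libraries other than 8 and 1011 in WT library 8. A 3′ tag lies outside the disrupted part of Apoe and shows only how much transcript is left. Microglia markers were high in both groups, with sums over 10 genes of 76125 to 90526 in ApoE KO and 56295 to 74309 in WT libraries. Sex markers went against the labels in both tables. The 4 ApoE KO libraries held 0 Y-linked reads and WT library 8 also held 0, with Xist at 1980 to 3292 normalised counts in ApoE KO and 3291 in WT library 8. The other 6 WT libraries, although labelled female, held 11 to 36 Y-linked reads beside 973 to 1509 Xist reads, with Xist at 1127 to 1279 normalised counts. rAPOE library 5 and PBS library 5, although labelled male, held 924 and 1521 Xist reads and 0 Y-linked reads, while the other injected libraries held 83 to 374 Y-linked reads and 0 to 1 Xist reads. Sex markers and genotype therefore cannot be told apart over most of the genotype table. Results are also given against WT library 8 alone, without WT library 8 and without both libraries numbered 5.

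In ApoE KO libraries the signalling chain Fcer1g, Fcrls and the activating receptors Fcgr1 and Fcgr3 were higher than in WT libraries, by 1.48-fold to 1.87-fold. The inhibitory receptor Fcgr2b and the activating receptor Fcgr4 did not pass the test. Thus 4 of 6 genes rose and 0 fell (limma, Benjamini-Hochberg adjusted p under 0.05 over all genes tested), where 5.14% of the 10401 genes tested rose and 19.8% fell. Among the 1786 genes with a mean of at least 200 normalised counts, 17.1% rose, and 5 of the 6 genes belong to that level. In bulk libraries, more cells of a type and more RNA per cell cannot be told apart. The cell makeup differed as well: 8 choroid plexus markers summed to 429 to 887 normalised counts in ApoE KO and 23736 to 83592 in WT libraries, and the part of this difference in the 6 genes was not tested.

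Fcgr1 encodes the high-affinity receptor for IgG. Its normalised count was 775, 472, 567 and 488 in ApoE KO libraries 1 to 4, against a lowest of 310, a median of 376 and a highest of 455 in WT libraries. All 4 ApoE KO libraries lay above all 7 WT libraries, with library 1 well above the other 3. The mean was 575 ± 139 (SD, n = 4) in ApoE KO and 376 ± 45.0 (SD, n = 7) in WT, a 1.53-fold difference. On the log2(normalised count + 1) scale, which understates changes of low genes, the difference was 0.59 (SE 0.16, limma adjusted p = 0.0152). Without ApoE KO library 1 the difference was 0.44 and no longer passed (SE 0.15, limma adjusted p = 0.0528).

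Fcgr3 encodes a low-affinity activating receptor for IgG. Its level was 4353, 4387, 4020 and 4336 in the ApoE KO libraries, against a lowest of 2130, a median of 2795 and a highest of 3662 in WT libraries. The groups did not overlap, and WT library 1 came nearest to the ApoE KO libraries. The mean was 4274 ± 171 (SD, n = 4) in ApoE KO and 2879 ± 455 (SD, n = 7) in WT, 1.48-fold, and the log2 difference was 0.58 (SE 0.14, limma adjusted p = 0.00612).

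Fcgr4 encodes the activating receptor that binds IgG2a and IgG2b. Its level was 31.8, 130, 35.4 and 33.2 in the ApoE KO libraries, against a lowest of 9.03, a median of 49.3 and a highest of 60.8 in WT libraries. ApoE KO library 2 was above every WT library, while the other 3 lay within the WT range. The log2 difference of 0.35 (SE 0.58, limma adjusted p = 0.692) did not pass, and it turned to -0.14 without ApoE KO library 2 and was 0.03 without WT library 8. Fcgr4 was also covered by few reads, 56 to 293 per ApoE KO library and 5 to 79 per WT library.

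Fcer1g encodes the gamma chain that carries the activating signal. Its level was 2482, 2199, 2398 and 2686 in the ApoE KO libraries, against a lowest of 1016, a median of 1353 and a highest of 1529 in WT libraries. The lowest ApoE KO library was above the highest WT library. The mean was 2441 ± 202 (SD, n = 4) in ApoE KO and 1303 ± 172 (SD, n = 7) in WT, 1.87-fold. The log2 difference was 0.91 (SE 0.13, limma adjusted p = 0.000147), and 4.34% of the genes tested had a higher one.

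Fcgr2b, the only inhibitory receptor among the 6, was at 272, 419, 255 and 250 in the ApoE KO libraries. In WT libraries the lowest value was 205, the median 229 and the highest 264. ApoE KO libraries 1 and 2 lay above all WT libraries and libraries 3 and 4 within their range. The log2 difference of 0.36 (SE 0.17, limma adjusted p = 0.146) did not pass, and without ApoE KO library 2 it was 0.19.

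Fcrls was at 4486, 3793, 4328 and 3830 in the ApoE KO libraries, against a lowest of 1966, a median of 2139 and a highest of 3022 in WT libraries. The groups did not overlap, and the highest WT value belonged to library 8. The mean was 4109 ± 350 (SD, n = 4) in ApoE KO and 2239 ± 362 (SD, n = 7) in WT, 1.84-fold, with a log2 difference of 0.89 (SE 0.13, limma adjusted p = 0.000233).

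**Figure D1:**
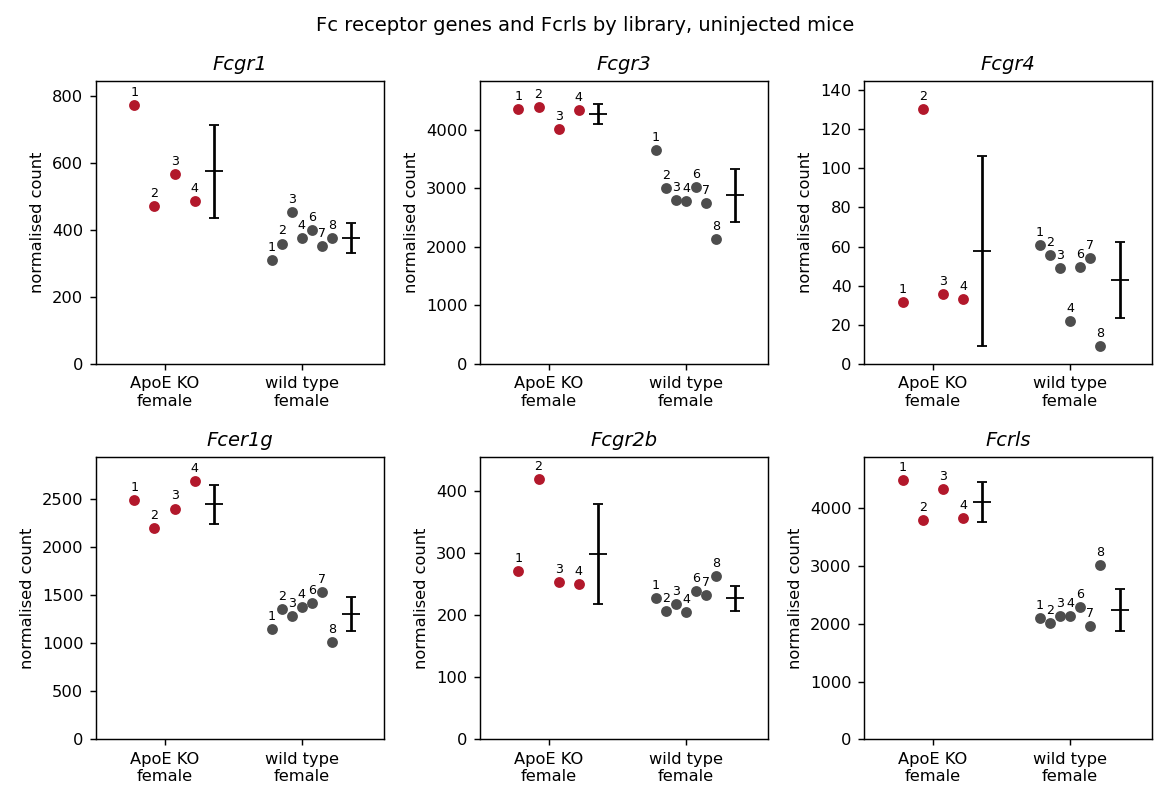
Normalised counts (vertical axis, from 0) of the 6 genes in each uninjected library, ApoE KO females (red) left of WT females (grey). Points are libraries with their numbers, and the bar to the right of each group is the mean with its SD. All 4 ApoE KO libraries lie above all 7 WT libraries for Fcgr1, Fcgr3, Fcer1g and Fcrls, while Fcgr4 and Fcgr2b overlap.

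For 4 of the 6 genes every ApoE KO library lay above every WT library, which held for 3.67% of all genes tested. For 0 of the 6 did every ApoE KO library lie below every WT library, which held for 10.6% of all genes. Without WT library 8 the same 4 genes passed, with log2 differences of 0.60 for Fcgr1 (limma adjusted p = 0.00992), 0.52 for Fcgr3 (limma adjusted p = 0.000425), 0.85 for Fcer1g (limma adjusted p = 8.39e-06) and 0.96 for Fcrls (limma adjusted p = 1.05e-06). WT library 8, the WT library whose sex markers match those of the ApoE KO libraries, was below all 4 ApoE KO libraries for each of these genes. Against that library alone, without the 6 WT libraries that held Y-linked reads, Fcer1g passed with a log2 difference of 1.26 (SE 0.18, limma adjusted p = 0.0401). Fcgr3 differed by 1.003 (limma adjusted p = 0.0502), Fcgr1 by 0.59 (limma adjusted p = 0.628) and Fcrls by 0.44 (limma adjusted p = 0.424), and none of the 3 passed. This fit takes the lone WT library to vary like the ApoE KO libraries, and Fcgr4, at 2.26, and Fcgr2b, at 0.15, did not pass either. The median log2 difference over all genes was -0.45, so relative to it the 6 genes lay 0.80 to 1.36 higher. Most of that gap belongs to genes of lower level. Among genes with a mean of at least 200 normalised counts, which include 5 of the 6, the median was 0.00. Relative to genes of that level, the differences of these 5 stay as given above. Quantile rescaling moved that median to -0.07 and the split of all calls to 696 higher and 1330 lower, against 535 higher and 2061 lower without it. Relative to the rescaled median the 6 genes lay 0.46 to 0.96 higher.

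Microglia markers rose in the same comparison, 6 of 10 with a median log2 difference of 0.47 (3 without ApoE KO library 1, 8 without WT library 8). Against WT library 8 alone their median was -0.06. Fcrls was therefore also set against the mean log2 level of these 10 markers in the same library. The log2 ratio of Fcrls to the markers averaged -0.34 ± 0.14 (SD, n = 4) in ApoE KO and -0.75 ± 0.05 (SD, n = 7) in WT libraries, and every ApoE KO library lay above every WT library. How many of all genes lay apart in this ratio was not counted. For Fcer1g the ratio averaged -1.09 ± 0.14 (SD, n = 4) in ApoE KO and -1.53 ± 0.37 (SD, n = 7) in WT libraries, and WT library 7, at -1.17, reached into the ApoE KO range. Relative to the markers, Fcgr1 differed by 0.12, Fcgr3 by 0.11, Fcgr2b by -0.11 and Fcgr4 by -0.13, and the groups overlapped for each. The ratio of each activating receptor to Fcgr2b overlapped between the groups as well, with mean log2 differences of 0.23 for Fcgr1, 0.22 for Fcgr3 and -0.02 for Fcgr4. For Fcer1g to Fcgr2b the mean log2 difference was 0.55, and ApoE KO library 2, at 2.39, lay within the WT range.

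Markers of other cells differed between the same libraries, in which 19.8% of all genes tested fell. Genes near 0 in all ApoE KO libraries reached the mean of 10 needed for the test only through WT libraries, which fixed their direction. All 8 choroid plexus markers, genes of the epithelium that makes cerebrospinal fluid, were lower in ApoE KO, with a median log2 difference of -6.94, and in 5 of the 7 WT libraries their sum was above that of the microglia markers. Neuron markers summed to 0 to 57 in ApoE KO and 105 to 1161 in WT libraries, with 6 of 6 lower in ApoE KO. Astrocyte markers summed to 540 to 1008 in ApoE KO and 1264 to 2228 in WT libraries, with 5 of 6 lower. Of 5 oligodendrocyte genes 2 were lower, and of 5 endothelial genes 1. The endothelial count is near the share of all genes and is no result about these cells. Markers of cells that carry Fc receptors themselves were among those that differed. Border macrophage markers summed to 687 to 802 in ApoE KO and 903 to 1112 in WT libraries, without overlap, but the sum mixes opposite movements. Of 9 tested genes 1 was higher and 2 lower in ApoE KO. The higher one, Stab1, averaged 547 in ApoE KO and 320 in WT libraries and made up most of the ApoE KO sum. The lower ones were Pf4, at 2.98 against 344, and F13a1, at 11.1 against 76.3. Mrc1 averaged 106 in both groups. Mast cell markers summed to 0 to 5.76 in ApoE KO and 0 to 299.9 in WT libraries, with 3 of 3 tested genes lower. These 3, Cpa3, Tpsb2 and Cma1, were at 0 in all ApoE KO libraries. They were tested only because of their WT values, so their direction was fixed beforehand. Monocyte markers summed to 0 to 276 in ApoE KO libraries, 83.1 in WT library 8 and 1436 to 1628 in the other WT libraries. Of 9 tested genes 5 were lower in ApoE KO, and S100a4, Plac8 and Vcan were at 0 in all ApoE KO libraries. Fn1, the highest of these genes in WT libraries, averaged 866 there and 0.142 in ApoE KO. Ly6c2 and Chil3 averaged 12.3 and 42.3 in ApoE KO against 9.24 and 10.55 in WT libraries and did not pass. Ccr2 and Itgal were lower on average in ApoE KO and did not pass either. Natural killer cell markers were at 0 in all ApoE KO libraries and summed to 0 to 79.7 in WT libraries. Neutrophil markers summed to 3430, 1769, 4291 and 6330 in ApoE KO libraries 1 to 4, to 356 in WT library 8 and to 2247 to 2940 in the other WT libraries, and 0 of 8 tested genes passed with limma (1 at an unadjusted p under 0.05). With edgeR 0 of the 8 passed, or 2, both higher in ApoE KO, without WT library 8, and with DESeq2 1 did. ApoE KO library 2, the highest for Fcgr4, had the lowest of those 4 neutrophil sums. B cell markers summed to 27.2 to 154 in ApoE KO libraries, 37.9 in WT library 8 and 319 to 464 in the other WT libraries. ApoE KO library 2, the highest for Fcgr2b, had the highest B cell sum of its group. Of the 10 B cell markers 7 were at 0 in all ApoE KO libraries, and Cd79b, Cd22 and Igkc made up the sums there. The part of any of these cells in the values of the 6 genes was not tested.

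The signalling genes downstream of the receptors were taken from lists chosen with earlier results of these data known. Among genes with a mean of at least 200 normalised counts 17.1% rose and 15.2% fell, with a median log2 difference of 0.00, against 5.14% and 19.8% of all genes tested. Of 23 activating signalling genes tested, 6 rose and 0 fell, with a median log2 difference of 0.23. All 6 were among the 13 of them with a mean of at least 200, and leaving out 1 library gave from 3 higher (without ApoE KO library 1) to 7 higher (without WT library 8) and at most 1 lower. Lyn, the Src-family kinase that phosphorylates the Fcer1g motif, averaged 1804 ± 113 (SD, n = 4) in ApoE KO and 926 ± 144 (SD, n = 7) in WT libraries, a log2 difference of 0.97 (SE 0.13, limma adjusted p = 8.93e-05). The adaptors Grb2 and Lcp2 rose by 0.64 and 0.68, and the protein kinase C isoform Prkcd by 0.60. For Prkcd the groups overlapped, from 496 to 753 in ApoE KO and from 357 to 641 in WT libraries. Syk averaged 217 ± 121 (SD, n = 4) in ApoE KO and 200 ± 30.1 (SD, n = 7) in WT libraries and did not pass (log2 difference -0.05, limma adjusted p = 0.919). Syk was named here after its value was seen.

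Of 10 inhibitory signalling genes tested, 3 rose and 0 fell, with a median of 0.36, and the 3 were among 6 with a mean of at least 200. Inpp5d, the phosphatase recruited by Fcgr2b, averaged 1203 ± 207 (SD, n = 4) in ApoE KO and 626 ± 172 (SD, n = 7) in WT libraries, a log2 difference of 0.96 (SE 0.18, limma adjusted p = 0.00165). Its groups overlapped, with the highest WT value at 1004 and the lowest ApoE KO value at 947. Csk, the kinase that holds Src-family kinases inactive, rose by 0.75, and Pag1, the membrane adaptor that anchors Csk, by 1.10. For Pag1, however, WT library 8 reached 1903, above the highest ApoE KO value of 1491. Without WT library 8 the log2 difference of Pag1 was 1.36. Of 20 genes of the uptake machinery, 6 rose and 1 fell, with a median of 0.31, all 7 among 18 with a mean of at least 200. Marcks, an actin-binding substrate of protein kinase C, rose by 0.84, the GTPase Rac1 by 0.73 and the Arp2/3 subunit Arpc3 by 0.91, while the subunit Arpc1b fell by 0.82 on the log2 scale. Without WT library 8, 11 of these 20 genes rose and 1 fell. Against WT library 8 alone, 2 genes of the signalling and uptake lists passed, Rac1 and Arpc3, both higher in ApoE KO.

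Of 11 further receptors that share the Fcer1g chain, 3 were tested, 0 rose and 2 fell, where 19.8% of all genes tested fell. Those that fell, Clec4d and Cd300ld, reached the mean needed for the test only through their WT values, which fixed their direction. The count of 2 is therefore no result about this list. Clec4d, a C-type lectin receptor of myeloid cells, was at 0 in all 4 ApoE KO libraries and averaged 62.4 ± 28.5 (SD, n = 7) in WT libraries (limma adjusted p = 0.00242). By group means it was at least 36.6-fold lower in ApoE KO at a floor of 3 reads per library. WT values ranged from 0 to 85.7, and WT library 8 was at 0 like the ApoE KO libraries. Cd300ld averaged 3.10 ± 6.21 (SD, n = 4) in ApoE KO and 24.8 ± 13 (SD, n = 7) in WT libraries (log2 difference -3.54, SE 0.82, limma adjusted p = 0.00588). Its groups overlapped, from 0 to 12.4 in ApoE KO and from 5.42 to 42.2 in WT libraries. The monocyte marker sums given above are lower in ApoE KO libraries than in the WT libraries other than 8, but the monocyte genes Ly6c2 and Chil3 were not lower on average. The part of monocytes was not tested. Lilra5, an activating receptor named after its value was seen, did not pass (log2 difference -0.55, limma adjusted p = 0.683). With edgeR, DESeq2 or quantile rescaling 1 of the 3, Clec4d, fell, and none of the 3 reached a mean of 50. Of 3 other Fc and immunoglobulin receptors tested, 0 passed with limma, edgeR or DESeq2 (1 at an unadjusted p under 0.05). Of 3 immunoglobulin chains, 0 passed with limma or edgeR (1 at an unadjusted p under 0.05) and 1 fell with DESeq2. The neonatal Fc receptor gene Fcgrt averaged 132 ± 86.2 (SD, n = 4) in ApoE KO and 140 ± 25.4 (SD, n = 7) in WT libraries, and the heavy chain gene Ighm 375 ± 117 (SD, n = 4) in ApoE KO and 467 ± 95.6 (SD, n = 7) in WT libraries.

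The genes whose pattern over the 11 libraries was nearest to each gene that passed were listed by the root mean square difference of centred log2 values among 5713 genes with a mean of at least 50. Nearest to Fcrls were Lyn at 0.09, the transcription factor Elk3 at 0.09 and Marcks at 0.12, where the median over all genes was 0.71. Nearest to Fcer1g were Cd81, Pcbp1 and Mgat1 at 0.14 to 0.15, nearest to Fcgr3 were Rplp1, Ly6e and Fam49b at 0.08 to 0.12, and nearest to Fcgr1 were Pla2g15, Rab14 and Sparc at 0.12 to 0.16. These distances describe these libraries and share their group difference.

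After rAPOE injection into brains that lack ApoE, Fcgr4 was 5.65-fold higher than after PBS, and it was the only one of the 6 genes that passed the test. Fcrls was lower and Fcer1g higher on average, but neither passed. Thus 1 of 6 genes rose and 0 fell, where 0.368% of the 7066 genes tested rose and 0.113% fell. Levels are not compared with those of the genotype table, which was normalised separately.

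Fcgr4 was at 113, 93.8, 95.4, 102 and 187 in rAPOE libraries 1 to 5, against 21.5, 12.6, 25.6, 20.4 and 24.5 in PBS libraries 1 to 5. All rAPOE libraries lay above all PBS libraries, which held for 1.59% of all genes, and library 5 was the highest of its group. The values rest on 93 to 240 reads per rAPOE library and 10 to 38 per PBS library. The mean was 118 ± 38.9 (SD, n = 5) after rAPOE and 20.9 ± 5.09 (SD, n = 5) after PBS. The log2 difference was 2.43 (SE 0.44, limma adjusted p = 0.00805), the highest of the 6, and 1.17% of the genes tested had a higher one. Without rAPOE library 5 the difference was 2.25 (SE 0.52) and the limma adjusted p was 0.0769. Without both libraries numbered 5, whose sex markers went against their labels, it was 2.32 (SE 0.57, limma adjusted p = 0.13), with the groups still apart.

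Fcgr1 was at 342, 365, 255, 306 and 301 in the rAPOE libraries, against 280, 397, 240, 200.9 and 243 in the PBS libraries. The groups overlapped, with the highest value in PBS library 2, and the log2 difference of 0.23 (SE 0.25, limma adjusted p = 0.779) did not pass. Fcgr3 was at 442, 303, 776, 419 and 340 in the rAPOE libraries, against 663, 659, 502, 446 and 438 in the PBS libraries. Here rAPOE library 3 lay above and libraries 2, 4 and 5 below all PBS libraries. The log2 difference was -0.31 (SE 0.26, limma adjusted p = 0.708) and did not pass.

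Fcer1g was at 1566, 1558, 1433, 897 and 1181 in the rAPOE libraries, against 750, 1163, 1094, 588 and 788 in the PBS libraries. Of the 5 rAPOE libraries, 4 lay above all PBS libraries and library 4 within their range. The mean was 1327 ± 286 (SD, n = 5) after rAPOE and 877 ± 243 (SD, n = 5) after PBS, 1.51-fold, and the log2 difference of 0.61 (SE 0.24, limma adjusted p = 0.329) did not pass over all genes.

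Fcgr2b was at 20.03, 113, 318, 291 and 281 in the rAPOE libraries, against 228, 149, 214, 231 and 361 in the PBS libraries. The rAPOE libraries spread widely, from 17 reads in library 1 to 375 reads in library 4. The log2 difference of -0.66 (SE 0.54, limma adjusted p = 0.686) did not pass, and without rAPOE library 1 it was 0.04.

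Fcrls was at 773, 810, 910, 824 and 702 in the rAPOE libraries, against 999, 1405, 989, 981 and 1313 in the PBS libraries. All rAPOE libraries lay below all PBS libraries, which held for 1.54% of all genes. The mean was 804 ± 76.1 (SD, n = 5) after rAPOE and 1137 ± 205 (SD, n = 5) after PBS. The log2 difference of -0.49 (SE 0.20, limma adjusted p = 0.376) did not pass over all genes.

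**Figure D2:**
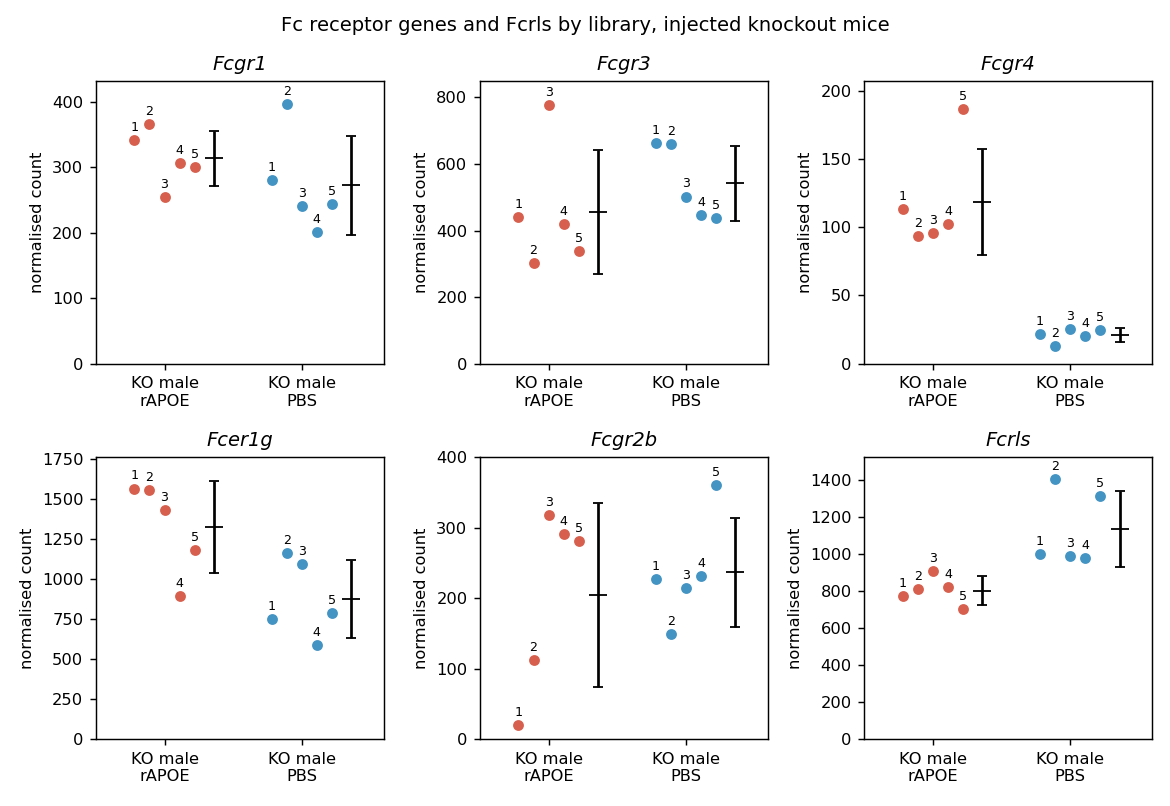
Normalised counts (vertical axis, from 0) of the 6 genes in each injected library, rAPOE (red) left of PBS (blue), all ApoE KO. Points are libraries with their numbers, and the bar to the right of each group is the mean with its SD. Fcgr4 lies at 93.8 to 187 after rAPOE and at 12.6 to 25.6 after PBS, Fcrls is lower in all 5 rAPOE libraries, and the other 4 genes overlap.

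Microglia markers moved down in the same libraries, with sums of 10735 to 23830 after rAPOE and 22213 to 26009 after PBS. Of 10 markers 3 fell, or 1 to 4 with any 1 library left out, with a median log2 difference of -0.81, and without both libraries numbered 5, 0 of the 10 fell with limma and the median was -0.59. With edgeR on all 10 libraries 0 of the 10 fell, and with DESeq2 4 did. P2ry12, the purine receptor of microglial processes, averaged 494 ± 360 (SD, n = 5) after rAPOE and 1428 ± 159 (SD, n = 5) after PBS. Set against the 10 markers of the same library, the log2 ratio of Fcrls averaged 0.19 ± 0.37 (SD, n = 5) after rAPOE and -0.25 ± 0.23 (SD, n = 5) after PBS, with overlap. Relative to the markers Fcgr3 differed by 0.62, Fcgr2b by 0.27 and Fcgr1 by 1.16, each with overlap, against -0.31, -0.66 and 0.23 per library. The direction of Fcrls, Fcgr3 and Fcgr2b thus depended on whether the level was taken per library or relative to these markers. The ratio of Fcer1g averaged 0.89 ± 0.49 (SD, n = 5) after rAPOE and -0.65 ± 0.43 (SD, n = 5) after PBS, and every rAPOE library lay above every PBS library. For Fcgr4 the ratio was -2.61 ± 0.83 (SD, n = 5) after rAPOE and -5.97 ± 0.36 (SD, n = 5) after PBS, also without overlap. As a level per library, Fcer1g overlapped between the groups (log2 difference 0.61). Since the markers moved down, a gene with an unchanged level also rises in this ratio. How many of all genes lay apart in such ratios was not counted.

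**Figure D3:**
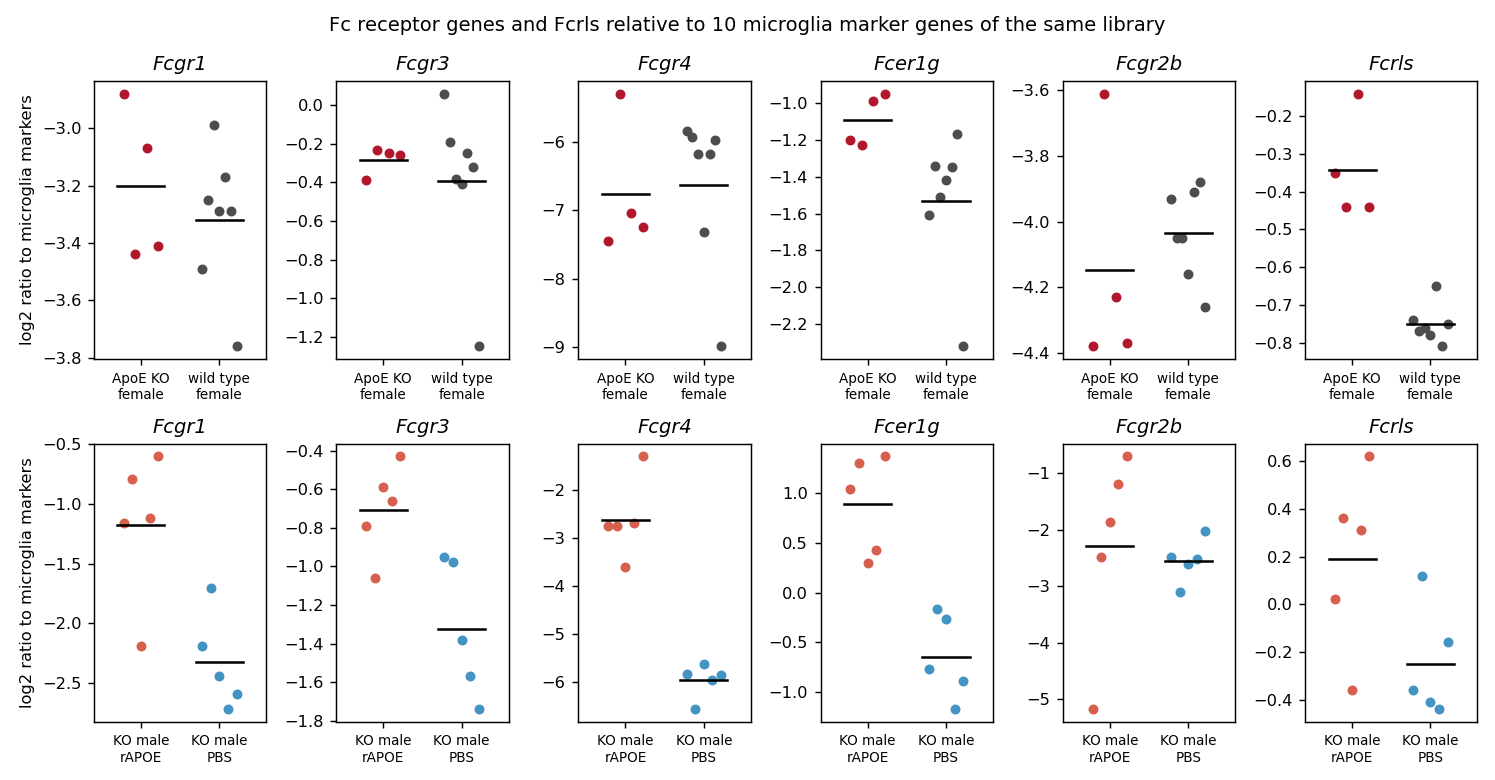
Log2 ratio of each gene to the mean log2 level of 10 microglia markers of the same library (vertical axes, each with its own range, not starting at 0), ApoE KO left of WT in the upper row and rAPOE left of PBS in the lower row. Points are libraries and lines are group means. The groups do not overlap for Fcrls in the upper row and for Fcgr4 and Fcer1g in the lower row. The share of all genes without overlap in such ratios was not counted.

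The ratio of Fcgr4 to the inhibitory Fcgr2b averaged -0.33 ± 1.66 (SD, n = 5) after rAPOE and -3.42 ± 0.29 (SD, n = 5) after PBS on the log2 scale. Every rAPOE library lay above every PBS library, from -1.73 to 2.44 after rAPOE and from -3.83 to -3.02 after PBS. The value of 2.44 belongs to rAPOE library 1 and raises the mean of its group. Fcgr4 alone was also without overlap, and how many of all genes lay apart in this ratio was not counted. The ratios of Fcgr1, Fcgr3 and Fcer1g to Fcgr2b differed by 0.89, 0.35 and 1.27 on average, each with overlap, and rAPOE library 1, where Fcgr2b had 17 reads, was the highest in all 3.

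Monocyte markers, genes of cells that also carry Fcgr4, summed over 10 genes to 15.3, 62.6, 6.02, 39.6 and 71.5 in rAPOE libraries 1 to 5 and to 12.8 to 30.9 after PBS. rAPOE libraries 2, 4 and 5 lay above all PBS libraries, and library 5, the highest for Fcgr4, had the highest monocyte sum. rAPOE library 3, with the lowest monocyte sum of all 10 libraries, had Fcgr4 at 95.4, above all PBS libraries. None of the 10 monocyte genes reached the mean of 10 needed for the test. Neutrophil markers summed to 6.02 to 160 over 7 genes after rAPOE and 92.3 to 208 after PBS, and 0 of 4 tested genes passed with limma, edgeR or DESeq2 (0 at an unadjusted p under 0.05). Of 10 B cell markers 3 were listed, with sums of 0 to 48.1 after rAPOE and 0 to 38.4 after PBS. The 3 choroid plexus markers listed summed to 0 to 522 after rAPOE and 0.827 to 267 after PBS, highest in the libraries numbered 5 of each group. Neutrophils also carry Fcgr4, and their highest sum was after PBS. The part of monocytes, neutrophils and the other cells in these values was not tested.

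No downstream gene passed with limma after rAPOE. Of 21 activating signalling genes 0 passed (2 at an unadjusted p under 0.05, median log2 difference -0.04), of 9 inhibitory signalling genes 0 (1 unadjusted, median -0.42) and of 20 uptake genes 0 (4 unadjusted, median 0.09), where the median of all genes was -0.01. With edgeR 0 genes of these 3 lists passed, and with DESeq2 1 inhibitory gene fell. No receptor of the Fcer1g chain list was high enough to be tested. Lyn averaged 990 ± 81.8 (SD, n = 5) after rAPOE and 962 ± 203 (SD, n = 5) after PBS. Tyrobp, the related adaptor chain of other myeloid receptors, averaged 926 ± 178 (SD, n = 5) after rAPOE and 946 ± 146 (SD, n = 5) after PBS. Among inhibitory genes Cbl averaged 419 ± 189 (SD, n = 5) after rAPOE and 390 ± 48.8 (SD, n = 5) after PBS, and Pag1 191 ± 40.3 (SD, n = 5) after rAPOE and 360 ± 65.0 (SD, n = 5) after PBS (log2 difference -0.92, limma adjusted p = 0.132). Among uptake genes Marcks averaged 1083 ± 196 (SD, n = 5) after rAPOE and 1486 ± 273 (SD, n = 5) after PBS, and Arpc2 606 ± 179 (SD, n = 5) after rAPOE and 442 ± 90.4 (SD, n = 5) after PBS. Of the other Fc receptors, Fcgrt averaged 28.1 ± 25.6 (SD, n = 5) after rAPOE and 42.6 ± 35.1 (SD, n = 5) after PBS. Fcrl1, a B cell Fc receptor-like gene, averaged 19.3 ± 16.9 (SD, n = 5) after rAPOE and 14.9 ± 6.71 (SD, n = 5) after PBS, and the chain gene Ighm 114 ± 52.8 (SD, n = 5) after rAPOE and 184 ± 81.7 (SD, n = 5) after PBS.

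**Figure D4:**
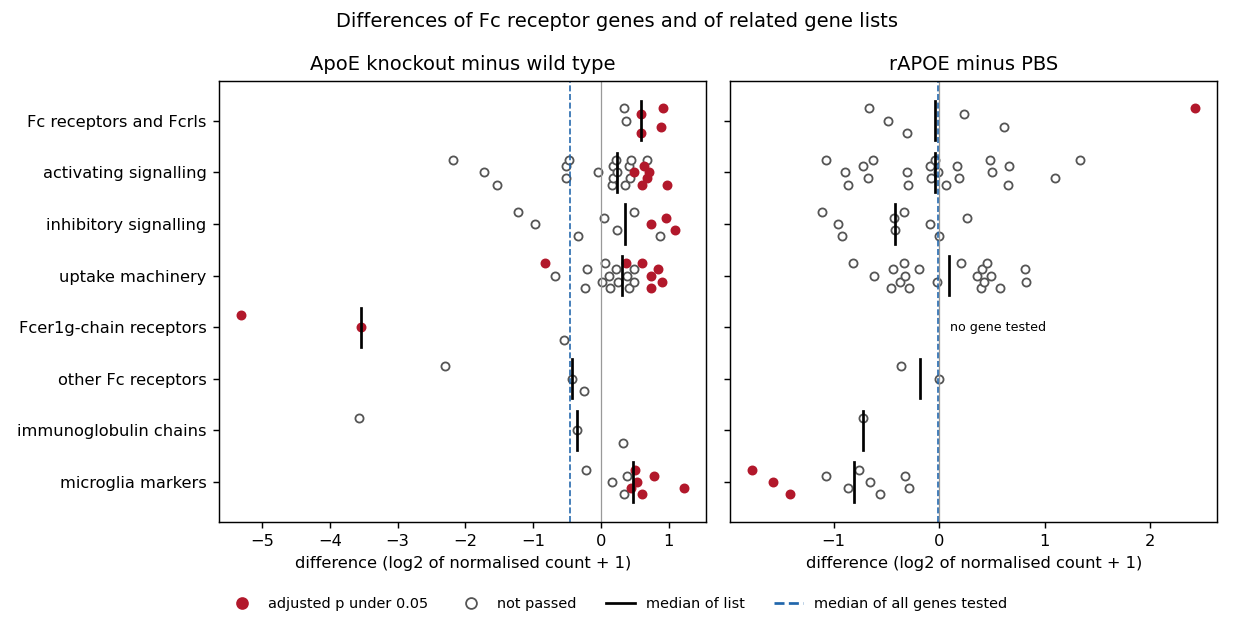
Log2 differences (horizontal axes) of the 6 genes and of the genes of 7 related lists (rows), ApoE KO minus WT on the left and rAPOE minus PBS on the right, with separate scales. Filled points passed at an adjusted p under 0.05, black lines are list medians and the dashed line is the median of all genes tested. Among the 6 genes, 4 passed on the left and 1, Fcgr4 at 2.43, on the right, where no gene of a signalling or uptake list passed.

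Nearest to Fcgr4 over the 10 injected libraries, among 2485 genes with a mean of at least 50, were the chemokine gene Cxcl16 at a root mean square difference of 0.37, the surface glycoprotein gene Cd52 at 0.58 and the glutaredoxin gene Glrx at 0.59. The median over all genes was 1.41. The log2 differences of these 3 genes between rAPOE and PBS libraries were 2.12, 1.47 and 1.75. The distance shares the group difference of Fcgr4, so a rise in these genes follows from how they were picked.

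Both comparisons can be set side by side on the log2 scale. Fcer1g differed by 0.91 in ApoE KO against WT and by 0.61 in rAPOE against PBS, Fcrls by 0.89 and -0.49, Fcgr1 by 0.59 and 0.23, Fcgr3 by 0.58 and -0.31, Fcgr2b by 0.36 and -0.66, and Fcgr4 by 0.35 and 2.43. The difference between the 2 comparisons was not tested, since they rest on separately normalised tables of different sexes by label.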

How the data were processed

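Isolated microglial RNA was sequenced on an Illumina MiniSeq from QuantSeq 3′ FWD libraries, per the labels' protocols, so reads are tags near the 3′ ends of polyadenylated transcripts. The submitters' processing notes name R 3.2.3, GRCm38.p3, Picard 1.8.4, DESeq2 and HTSeq without saying what each was used for. The aligner and the strand setting were not given in the sources used here. Each deposited value is a signal for 1 gene in 1 library, termed normalised count, and these values look like counts divided by 1 factor per library. Values above 0 were multiples of 1 step per library (100% within 0.01 of a whole number), which gave back the read counts. Reads carry no molecular identifiers, so the floor of 3 reads covers counting error only.

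The genotype table had 18221 entries. Of these, 22 with spreadsheet dates as names (0.0966% of the values) and 120 at 0 throughout were left out. All 21 value columns were used. The design foresaw raw or normalised counts, and the test for normalised counts applied. Values were fitted within each table as log2(normalised count + 1) with limma 3.58.1 (trend) in R 4.3.3, keeping genes whose mean reached 10. The fit was also run on simulated counts with as many genes raised as lowered. That simulation does not cover the excess of lower genes in the genotype table. Adjusted p-values are Benjamini-Hochberg over all genes tested, with a threshold of 0.05, two-sided. Alternatives used edgeR 4.0.16 and DESeq2 1.42.0 on recovered reads, other rescalings, pseudocounts and filters, a replicate block and left-out libraries.

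The 6 genes and all lists were chosen with earlier results of these data known. Genes were named by rule: all 6 members, up to 4 passing genes of each list by adjusted p (or the 2 with the highest mean where none passed), the 3 genes nearest in pattern to each passing member, and markers whose sums moved with a member. Apoe and the sex markers served as checks of the labels. Ratios to Fcgr2b and to the microglia markers are descriptions without a test.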

Additional observations from a re-analysis of the deposited data

Results flagged for a closer look

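In 5 of the 24 sets of values of 1 gene in 1 group, the highest or lowest library stood further from its nearest neighbour than Dixon's criterion allows at 95%. Chance alone flags about 1 in 20 such sets. Fcgr3 was low in ApoE KO library 3, at 4020. Fcgr4 was high in ApoE KO library 2, at 130.5, and Fcgr2b was high in the same library, at 419.5. Fcgr4 was high in rAPOE library 5, at 186.5, a library with female sex markers under a male label. Fcrls was high in WT library 8, at 3022, a library that also stood apart in Apoe.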

How the results depend on the processing

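Over 21 of 22 alternative settings the log2 difference of Fcer1g between ApoE KO and WT stayed at 0.84 to 0.96, that of Fcrls at 0.84 to 0.99 and that of Fcgr3 at 0.49 to 0.65, all past the threshold. Fcgr1 stayed positive and missed it under 2 of these: without ApoE KO library 1, as given above, and with the replicate block. Under the last setting, WT library 8 as the only WT library (chosen after seeing the data), 1 of the 6 genes and 62 of all genes passed, and Fcgr1, Fcgr3 and Fcrls did not. The replicate block used the 8 libraries with shared numbers, gave Fcgr1 a difference of 0.60 (limma adjusted p = 0.0717, against 0.0423 for the same 8 libraries without the block) and 3 of the 6 genes as higher, and called 1781 genes in all. Same-numbered libraries had deviations with r of -0.03 to 0.02 in the genotype table. In the injection table r was -0.004 to 0.02 for numbers 1 to 3, 0.11 for number 5 and 0.19 for number 4, the only number that correlated best with itself. The labels give no shared litter or day, and the main fits do not take the numbers as pairs. In the injection table the libraries numbered 4 and 5 held 10025 to 11342 detected genes in both groups, and the others 7601 to 8837. A factor shared by number in that table was not tested. With the replicate block Fcgr4 differed by 2.43 there (limma adjusted p = 0.016) and Fcer1g by 0.61 (limma adjusted p = 0.176). Of all genes, 2596 passed between ApoE KO and WT, 1289 with a mean of at least 50, where Fcgr4 was not tested, and 1658 with edgeR. Leaving out 1 library gave 2007 to 3169, and Fcgr4 ranged from -0.14 to 0.531. Of the other Fc and immunoglobulin receptors, 0 of 3 genes passed with all libraries. Fcmr, at 0 in all ApoE KO libraries and 14.4 on average in WT libraries, had a mean under 10 over all libraries. Without any 1 ApoE KO library or without WT library 8 it reached the filter through its WT values and was called lower. Its direction was thus fixed by the filter. Among the 3 immunoglobulin chains 1 fell without ApoE KO library 2 or WT library 8, and 1 rose without ApoE KO library 4. Between rAPOE and PBS 34 genes passed, 64 with a pseudocount of 5, 114 with DESeq2, 52 with the replicate block and 11 without both libraries numbered 5. Leaving out 1 library gave 16 to 74 genes in all (16, 20 and 22 without rAPOE libraries 5, 2 and 1, and 74 without library 3), and 0 to 1 of the 6. Without both libraries numbered 5, 0 of the 6 passed with limma, and 2 (Fcgr4 and Fcer1g) had an unadjusted p under 0.05. Fcgr4 passed under 17 of 19 settings, with differences of 2.23 to 2.51 and adjusted p of 6.21e-07 to 0.13. Fcgr2b ranged from -0.95 to 0.0353 with 1 library left out. In edgeR 24 genes passed. Depth limits Fcgr4 most, with 5 reads in WT library 8 and 10 in PBS library 2. The cause of these changes was not tested.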
